A study of Mus musculus with 24 samples.

Results

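The 10 genes described here, of 35591 in the count table, are targets of the fibroblast growth factor (FGF) and ERK pathway that act back on it: Spry1, Spry2 and Spry4 (Sprouty family), Spred1 and Spred2 (Spred family), Dusp4 and Dusp6 (phosphatases of ERK), and Etv1, Etv4 and Etv5 (ETS transcription factors). They were chosen by name, and all 10 were found in the table and passed the filter on low counts in every comparison. Poly(A) RNA had been sequenced from 6 male mouse embryonic stem cell (mESC) lines taken towards neuromesodermal progenitors, cells of the embryo's tail end that form spinal cord and trunk mesoderm. The lines came from a cross of Castaneus females with C57BL/6 fathers that carried a deleted and a floxed Smchd1 allele and the MMTV-Cre transgene. Smchd1 encodes a chromatin protein of gene silencing. The 3 control lines (wt) were Smchd1 fl/+ and so held a floxed allele, and the 3 heterozygous lines (het) were Smchd1 del/+ with the deletion on the paternal copy. The same lines were sampled on days 0, 2, 2.5 and 3, which gave 8 groups of 3 libraries. Each line grew out of a single blastocyst, and whether a line carried the Cre transgene is not given in the sources used here.

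In this pathway FGFs bind receptor tyrosine kinases at the cell surface, and the signal passes through RAS, RAF and MEK to the kinase ERK, which changes transcription. Sprouty and Spred proteins restrain the path between receptor and RAF, Dusp4 and Dusp6 remove the activating phosphates from ERK (Dusp4 mainly in the nucleus, Dusp6 in the cytoplasm), and the Etv factors carry the response to target genes. In mESCs this pathway drives exit from naive pluripotency, and in the caudal embryo it acts together with Wnt signalling to keep axial progenitors.

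All libraries saw changes of medium that bear on the pathway. The lines had been grown with the MEK inhibitor PD0325901 and the GSK3 inhibitor CHIR99021 plus LIF, were moved stepwise towards a serum medium with LIF (DME LIF in the day 0 labels), and were harvested on day 0. The last mixture described in the study's methods before that day still held a part of the inhibitor medium, and the medium of the final day is not given in the sources used here. From day 0 they were kept in serum-free N2B27 medium with basic FGF, and CHIR99021, which activates Wnt signalling, was added to the basic FGF from day 2. The step from day 0 to day 2 therefore joins loss of serum, LIF and any remaining MEK and GSK3 inhibitor with addition of FGF, and these cannot be told apart, while FGF was present on both sides of the later steps.

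Library totals ranged from 7.10 to 20.8 M (mega) counts, with the second lowest at 14.4 M, and the members had between 54 and 5906 counts in a library. The lowest total belonged to wt day 2.5 line 2. Smchd1 in het was 66.3%, 59.9%, 66.0% and 54.7% of the wt mean on days 0, 2, 2.5 and 3. The summed level of 6 naive pluripotency markers was 1147 to 1361 CPM (counts per M counts of the library, scaled by TMM factors) at day 0 and 110 to 208 CPM from day 2 on. That of 8 caudal epiblast and neuromesodermal markers, among them Cdx2 and Nkx1-2, was 3.06 to 10.4 CPM up to day 2 and 332 to 879 CPM at days 2.5 and 3. The sum of 4 epiblast-like markers was 976 to 1165 CPM on day 0, 1219 to 1416 CPM on day 2 and 144 to 479 CPM at days 2.5 and 3. Most of it was Dnmt3b, with a mean of 939 CPM in wt on day 0, where Fgf5, Pou3f1 and Otx2 had 10.8, 39.0 and 60.5 CPM. A list of 20 extraembryonic endoderm markers summed to 1375 to 3987 CPM at day 0 and to 4105 to 15624 CPM later. Between days 0 and 2, 12 of the 17 endoderm markers tested rose in wt and 12 rose in het, with Lama1, Lamb1, Col4a1 and Sparc the most abundant, while Afp had a mean of at most 0.475 CPM in any group. Some of these genes, such as Sparc and the laminin and collagen genes, are made by other cells too.

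The feedback genes did not move as a block. From day 0 to day 2, 3 members rose and 3 fell in wt, where 44.3% of all genes tested were called at an adjusted p under 0.05 (22.4% higher and 21.9% lower), and 5 rose and 3 fell in het, where 56.1% were called (28% higher and 28.1% lower). From day 2 to day 2.5, 3 rose and 3 fell in wt against a background of 29.1% (14.6% higher and 14.5% lower), and 3 rose and 5 fell in het against 44.7% (21.8% and 22.9%). From day 2.5 to day 3, 1 rose and 5 fell in wt against 19.1% (8.99% higher and 10.1% lower), and 3 rose and 5 fell in het against 29.8% (13.8% and 16%). In that step the members called went from 6 to 3 without wt day 3 line 3, where all genes called went from 2923 to 1281, and from 8 to 5 without het day 3 line 3, where all genes called went from 4710 to 3014. Over the whole course from day 0 to day 3, 4 rose and 4 fell in each genotype, with 53.6% of all genes called in wt (27% higher and 26.6% lower) and 64.3% in het (32.7% and 31.6%). The median log2 fold change of the members lay between -0.44 and 0.38 in these 8 comparisons, and that of all genes tested lay between -0.02 and 0.03. Adjusted p-values are from the edgeR quasi-likelihood test with Benjamini-Hochberg adjustment over all genes tested. Neighbouring steps share the libraries of the day between them, so their values are not independent.

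**Figure D1:**
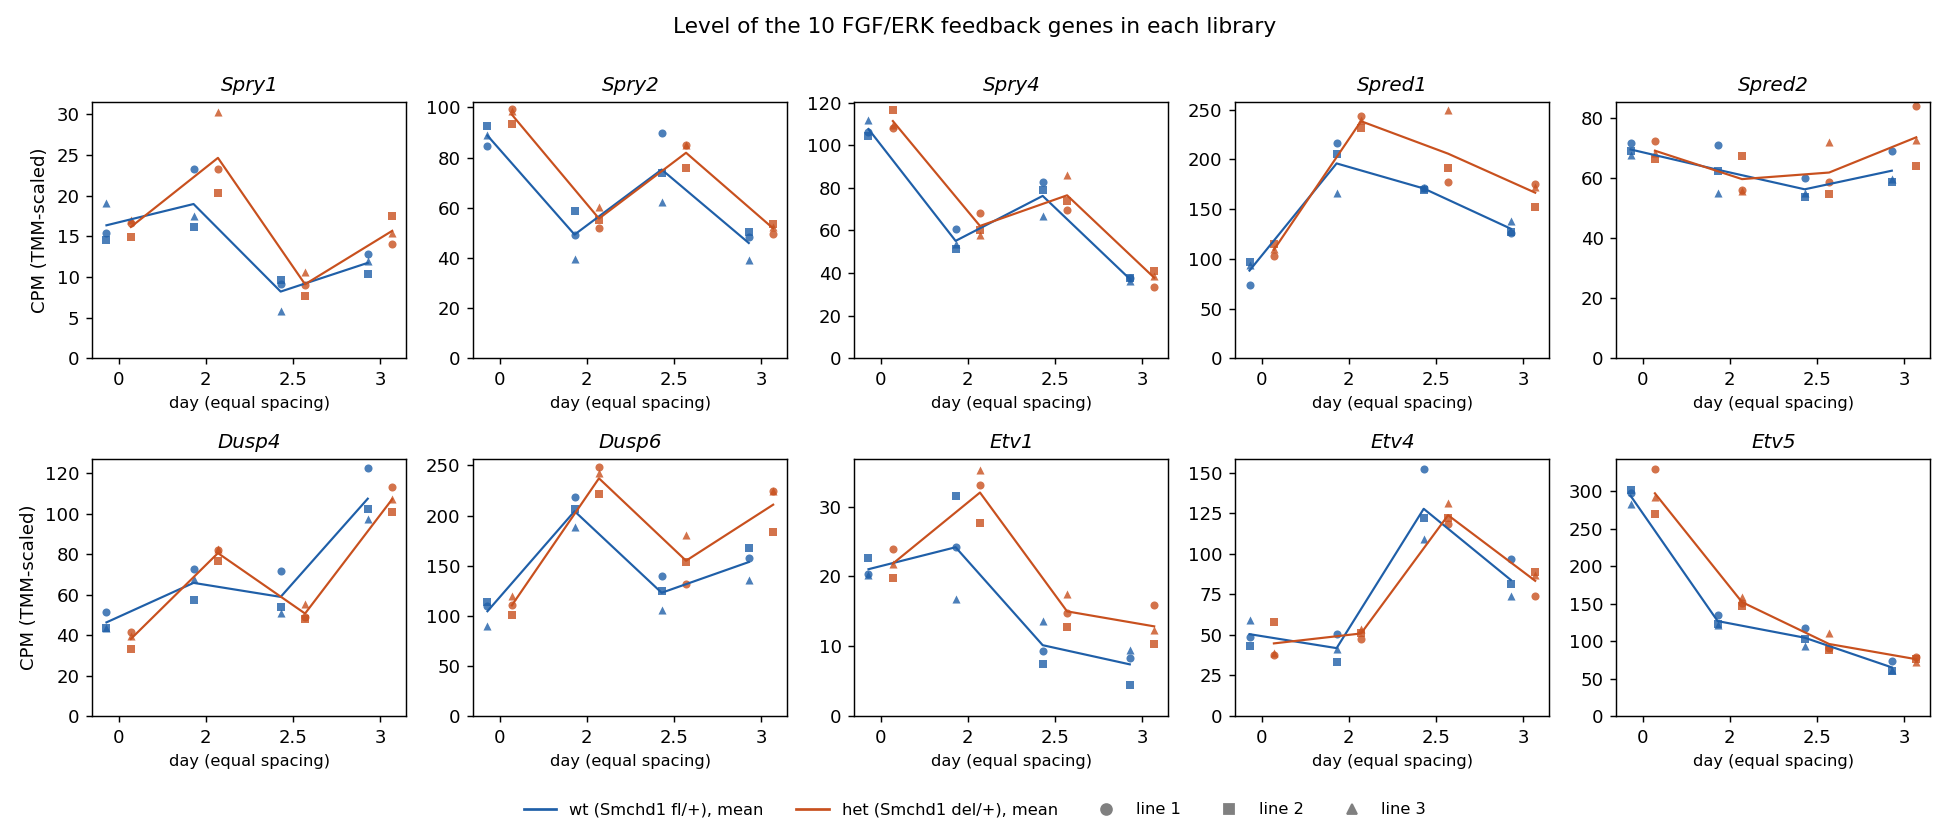
Level of each gene in each of the 24 libraries, in CPM on an axis that starts at 0, by day (days are equally spaced). Points are libraries, with a symbol for each line, and the lines join the means of the 3 wt (blue) and 3 het (orange) libraries. Spry2 and Spry4 fall, rise and fall again, Etv5 falls at each step from a wt mean of 294 CPM to 64.8 CPM, Etv4 is highest at day 2.5 and Spred2 stays near its starting level.

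Spry2 and Spry4, adaptors that are induced by receptor signalling and then inhibit it, followed a common course of fall, rise and fall. Spry4 (ENSMUSG00000024427, GRCm38 chromosome 18, 38586247 to 38601415, minus strand) was at 106, 104 and 112 CPM in the wt lines at day 0 and at 60.6, 51.2 and 53.5 CPM at day 2. It was at 82.5, 79.1 and 66.9 CPM at day 2.5 and at 37.6, 37.8 and 36.3 CPM at day 3. No wt library of a day overlapped with those of the day before or after. The log2 fold changes in wt were -0.96 (SE 0.11, adjusted p = 1.36e-05), 0.46 (SE 0.14, adjusted p = 0.0221) and -1.03 (SE 0.12, adjusted p = 0.000921) for the 3 steps. In het they were -0.83 (SE 0.09), 0.28 (SE 0.11, adjusted p = 0.0444) and -1.04 (SE 0.11). At day 3 the gene was 2.87-fold lower than at day 0 in wt and 2.93-fold lower in het.

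Spry2 (ENSMUSG00000022114, chromosome 14, 105891947 to 105896819, minus strand) was at 84.6, 92.7 and 89.0 CPM in wt at day 0 and at 49.3, 58.9 and 39.7 CPM at day 2. Its wt levels at day 2.5 were 89.8, 73.7 and 62.2 CPM, and at day 3 they were 48.4, 50.5 and 39.0 CPM. At day 2.5 line 1 thus reached into the wt range of day 0, and lines 2 and 3 lay below it. The wt libraries of day 3 returned to the range of day 2 or just below it. In het the day 2.5 libraries lay at 75.7 to 85.0 CPM, below those of day 0 at 93.4 to 99.3 CPM. The 3 steps in wt were -0.84 (SE 0.14, adjusted p = 0.000264), 0.61 (SE 0.17, adjusted p = 0.0187) and -0.70 (SE 0.16, adjusted p = 0.0128) on the log2 scale, and in het -0.79 (SE 0.09), 0.54 (SE 0.10) and -0.69 (SE 0.08). In wt the rise at day 2.5 kept its direction but lost its call in some fits. Spry2 lost it without line 1 or 3 of day 2 or line 1 or 2 of day 2.5 (log2 0.46 to 0.62, adjusted p of up to 0.0947). Spry4 lost it without line 2 or 3 of day 2 or line 2 of day 2.5 (log2 0.40 to 0.44, adjusted p of up to 0.0827). In het the rise of Spry4 lost its call without line 2 or 3 of either day (log2 0.20 to 0.30, adjusted p of up to 0.176). It also lost its call with the line as a block (log2 0.28, adjusted p = 0.0579). The fall of Spry2 to day 3 in wt lost its call without wt day 3 line 3 (-0.60, adjusted p = 0.0645).

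Spry1 (ENSMUSG00000037211, chromosome 3, 37639947 to 37644598, plus strand), of the same family, ran a different course at a low level. In wt it ranged from 14.6 to 19.1 CPM on day 0 and from 16.2 to 23.3 CPM on day 2, then from 5.77 to 9.67 CPM on day 2.5 and from 10.3 to 12.9 CPM on day 3. It fell where Spry2 and Spry4 rose, with a log2 fold change from day 2 to day 2.5 of -1.23 (SE 0.25, adjusted p = 0.00307) in wt and -1.46 (SE 0.19, adjusted p = 2.69e-05) in het. The log2 changes around that fall passed the threshold in het, at 0.62 (SE 0.16) to day 2 and 0.76 (SE 0.16) to day 3, and were 0.22 (SE 0.20, adjusted p = 0.395) and 0.54 (SE 0.24, adjusted p = 0.147) in wt. Whether the 2 genotypes differ in these steps is given with the interaction test further on. Spry1 shares 710 bases with Gm42922, annotated on the opposite strand, and since the libraries were made with a stranded or a non-stranded kit their reads may not be told apart there, but Gm42922 held 52 counts over all 24 libraries.

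Spred1 and Spred2 encode membrane-bound inhibitors of RAS and RAF signalling, and only Spred1 was called in a step with all libraries fitted. Spred1 (ENSMUSG00000027351, chromosome 2, 117121374 to 117182279, plus strand) was at 74.2, 96.8 and 93.7 CPM in wt at day 0 and at 216, 206 and 166 CPM at day 2. It was at 171, 169 and 172 CPM at day 2.5 and at 126, 127 and 138 CPM at day 3. The day 2 libraries all lay above those of day 0, and the day 3 libraries lay between. The rise to day 2 was 2.23-fold in wt (log2 1.16, SE 0.13, adjusted p = 8.61e-06) and 2.20-fold in het (log2 1.14, SE 0.07, adjusted p = 1.53e-09). From day 2 to day 2.5 the log2 values were -0.20 (SE 0.12, adjusted p = 0.235) in wt and -0.24 (SE 0.10, adjusted p = 0.0794) in het, where the adjusted p was 0.0489 with the line as a block and 0.00189 without het day 2.5 line 3 (-0.38). The fall from day 2.5 to day 3 was -0.39 (SE 0.09, adjusted p = 0.0178) in wt and -0.33 (SE 0.11, adjusted p = 0.0483) in het, where it was not called with DESeq2 size factors, library totals alone or a single fit of all libraries (adjusted p of 0.0584 to 0.0712). It lost its call in 4 of 6 fits that left out a wt library, with an adjusted p of up to 0.0692, and in 5 of 6 that left out a het library, where without het day 2.5 line 3 the value was -0.16 (adjusted p = 0.227).

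Spred2 (ENSMUSG00000045671, chromosome 11, 19924375 to 20024026, plus strand) was the flattest member. Its 24 libraries lay between 53.6 and 84.0 CPM, and its log2 fold change in the consecutive steps lay between -0.20 (SE 0.10, adjusted p = 0.0890, het day 2 against day 0) and 0.23 (SE 0.12, adjusted p = 0.172, het day 3 against day 2.5). No step or day 3 against day 0 comparison of either genotype called it with all libraries, and it was called in het day 2 against day 0 without het day 2 line 2 (-0.30, adjusted p = 0.0160) and in het day 3 against day 2.5 without het day 2.5 line 3 (0.36, adjusted p = 0.0420).

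Dusp6 and Dusp4 were both higher at day 2 than at day 0. Dusp6 (ENSMUSG00000019960, chromosome 10, 99263231 to 99267489, plus strand), the cytoplasmic ERK phosphatase and a common readout of FGF signalling, was at 110, 114 and 89.9 CPM in wt at day 0 and at 218, 206 and 189 CPM at day 2. The wt libraries were at 139, 124 and 105 CPM at day 2.5 and at 157, 167 and 136 CPM at day 3. The 3 libraries of day 2 stood above those of every other wt day. The steps in wt were 0.97 (SE 0.12, adjusted p = 1.48e-05), -0.74 (SE 0.13, adjusted p = 0.00102) and 0.33 (SE 0.13, adjusted p = 0.0948) on the log2 scale. The last had an adjusted p of 0.0161 with the line as a block and 0.0390 without wt day 2.5 line 1. In het the steps were 1.11 (SE 0.08), -0.64 (SE 0.10) and 0.42 (SE 0.11, adjusted p = 0.0166). The last lost its call without het day 3 line 3 (0.38, adjusted p = 0.0759) or het day 2.5 line 1 (0.32, adjusted p = 0.0684).

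Dusp4 (ENSMUSG00000031530, chromosome 8, 34807297 to 34819894, plus strand), the nuclear relative, ended as the member with the largest gain over the whole course. In wt it began at 51.6, 43.5 and 43.7 CPM on day 0 and reached 72.5, 57.1 and 67.9 CPM on day 2. It was at 71.8, 54.0 and 50.9 CPM on day 2.5 and at 123, 102 and 97.6 CPM on day 3. In het it was at 41.3, 33.3 and 39.6 CPM, then 82.2, 76.8 and 82.7 CPM, then 48.7, 47.9 and 55.3 CPM, and finally 113, 101 and 107 CPM. The level at day 3 was 2.33-fold that of day 0 in wt (log2 1.22, SE 0.12) and 2.82-fold in het. The step to day 2 was 0.51 (SE 0.14, adjusted p = 0.00714) in wt and 1.09 (SE 0.10, adjusted p = 2.49e-07) in het, and the step to day 2.5 was -0.16 (SE 0.16, adjusted p = 0.478) in wt and -0.69 (SE 0.09, adjusted p = 5.15e-05) in het. In wt the rise to day 2 had an adjusted p of 0.0526 without wt day 0 line 3. Genes of chromosome 8 stood high in wt line 1: over 669 of them its median was 0.17 to 0.30 above the mean of the other wt lines on the log2 scale, by day, and Dusp4 in that line stood 0.22 to 0.45 above it.

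The promoter windows of Dusp6 and Spred1, which rose to day 2, and of Spry2, which fell, are shown because these 3 genes of a common feedback set moved in opposite directions in the same medium change. Each is the 250 bases before the RefSeq start on GRCm38.p6, written from 5′ to 3′ on the gene's strand, and capitals mark the ETS motif CGGAAG or its reverse complement CTTCCG. Shorter or other forms of the ETS motif were not searched.
Dusp6, chr10:99262981-99263230, + strand: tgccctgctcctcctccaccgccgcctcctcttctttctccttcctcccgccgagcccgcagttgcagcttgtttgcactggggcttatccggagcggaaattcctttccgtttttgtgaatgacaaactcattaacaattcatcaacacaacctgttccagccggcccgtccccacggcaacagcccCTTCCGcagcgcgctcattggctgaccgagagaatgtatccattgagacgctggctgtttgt
Spred1, chr2:117120821-117121070, + strand: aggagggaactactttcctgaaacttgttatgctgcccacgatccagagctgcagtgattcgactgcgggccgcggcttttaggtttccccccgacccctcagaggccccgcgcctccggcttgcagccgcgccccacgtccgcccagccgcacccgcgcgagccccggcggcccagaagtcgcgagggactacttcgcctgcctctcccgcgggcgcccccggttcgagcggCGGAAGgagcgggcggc
Spry2, chr14:105896820-105897069, - strand: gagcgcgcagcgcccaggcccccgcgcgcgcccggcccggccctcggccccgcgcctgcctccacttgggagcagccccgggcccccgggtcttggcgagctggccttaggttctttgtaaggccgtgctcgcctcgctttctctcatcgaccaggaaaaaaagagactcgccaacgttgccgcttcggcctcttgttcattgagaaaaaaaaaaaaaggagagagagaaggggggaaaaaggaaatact
The Dusp6 window holds CTTCCG 62 bases before the start and that of Spred1 holds CGGAAG 17 bases before it, while these letters are not in the Spry2 window. Windows were at hand for 7 members (9 windows, since Etv1 and Etv5 have a pair each), and not for Spry4, Dusp4 and Etv4. The RefSeq start of Spred1 lies before the gene start given above. The ETS motif CGGAAG was in 3 of the 9 (Spred1, Dusp6 and Spred2), against 13.6% of 32851 windows of this length. The TCF/LEF core CTTTGA (reverse complement TCAAAG) was in 1, of Etv1, against 13.8%, and the AP-1 motif TGANTCA was in 0, against 6.75%. Both strands were searched and the motifs do not overlap in these windows. Members with the ETS motif CGGAAG thus include Spred2, which was not called in a step with all libraries fitted.

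The Etv factors changed places. Etv5 (ENSMUSG00000013089, chromosome 16, 22381309 to 22439719, minus strand) stood at 298, 302 and 283 CPM in wt on day 0 and at 135, 123 and 122 CPM on day 2. On day 2.5 it was at 117, 103 and 93.3 CPM, and on day 3 at 73.2, 60.4 and 60.9 CPM. The libraries of successive wt days did not overlap. It was 4.51-fold lower at day 3 than at day 0 in wt (log2 -2.17, SE 0.10, adjusted p = 8.98e-09) and 3.91-fold lower in het (log2 -1.97, SE 0.08, adjusted p = 8.22e-10), the largest change of any member over the whole course. The first step was -1.21 (SE 0.10, adjusted p = 3.97e-07) in wt and -0.96 (SE 0.07, adjusted p = 2.89e-08) in het. The next was -0.28 (SE 0.12, adjusted p = 0.103) in wt and -0.68 (SE 0.09, adjusted p = 4.52e-05) in het, and the last was -0.68 (SE 0.12, adjusted p = 0.00529) in wt and -0.37 (SE 0.09, adjusted p = 0.0127) in het. The second step was called in wt without wt day 2.5 line 1 (-0.37, adjusted p = 0.0367) and in a single fit of all libraries (adjusted p = 0.0346). The last lost its call in het without het day 2.5 line 3 (-0.24, adjusted p = 0.0583) or het day 3 line 3 (-0.33, adjusted p = 0.0657).

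Etv4 (ENSMUSG00000017724, chromosome 11, 101769742 to 101785371, minus strand) rose after Wnt activation. In wt it was at 49.0, 43.2 and 59.1 CPM at day 0 and at 50.7, 33.4 and 41.3 CPM at day 2, ranges that overlapped. In het the step to day 2 was called once, without het day 0 line 2 (0.42, adjusted p = 0.00944). At day 2.5 the wt level was 152, 122 and 109 CPM, above every library of the earlier days, and at day 3 at 96.5, 81.3 and 73.8 CPM. The rise from day 2 to day 2.5 was 3.05-fold in wt (log2 1.61, SE 0.17, adjusted p = 3.49e-05) and 2.40-fold in het (log2 1.26, SE 0.09, adjusted p = 1.22e-07), the largest rise of any member in a step. The fall that followed was -0.60 in both genotypes (wt SE 0.14, adjusted p = 0.0165; het SE 0.09, adjusted p = 0.000684). In wt this call was lost without wt day 2.5 line 2 or wt day 3 line 2 or 3, with an adjusted p of up to 0.0816.

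Etv1 (ENSMUSG00000004151, chromosome 12, 38779380 to 38870484, plus strand) was the scarcest member for its length, with 54 to 592 counts in a library. In wt it ranged from 20.2 to 22.6 CPM on day 0 and from 16.8 to 31.5 CPM on day 2. The range was 7.46 to 13.6 CPM on day 2.5 and 4.39 to 9.51 CPM on day 3. It fell from day 2 to day 2.5, at -1.24 (SE 0.27, adjusted p = 0.00420) in wt and -1.12 (SE 0.15, adjusted p = 4.46e-05) in het on the log2 scale, the step in which Etv4 rose. Its step to day 2 was 0.56 (SE 0.13, adjusted p = 0.00222) in het and 0.21 (SE 0.21, adjusted p = 0.453) in wt. The het call was lost in a single fit of all 24 libraries (adjusted p = 0.0522), and the wt value was -0.0406 without wt day 2 line 2. From day 2.5 to day 3 it was -0.47 (SE 0.32, adjusted p = 0.328) in wt and -0.25 (SE 0.18, adjusted p = 0.333) in het.

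The exchange within the family is seen in per-length levels, CPM divided by the kilobases of exon (CPM per kb). Of the summed per-length level of the 3 Etv genes, Etv5 made up 80.1% ± 2.79 in wt on day 0, 67.0% ± 2.57 on day 2, 37.9% ± 1.32 on day 2.5 and 36.5% ± 1.11 on day 3 (SD, n = 3). Etv4 made up 18.1% ± 2.88, 29.0% ± 3.65, 60.9% ± 1.60 and 62.2% ± 1.60 on the same days. In het the share of Etv5 went from 81.8% ± 4.63 to 40.0% ± 2.88 and that of Etv4 from 16.4% ± 4.74 to 57.9% ± 3.39 between day 0 and day 3. Each of the 6 lines had more Etv5 than Etv4 up to day 2 and more Etv4 than Etv5 from day 2.5. Some 79.2% of the 75-base stretches of the longest Etv5 transcript occur in no other gene's transcripts, 83.7% for Etv1 and 81.4% for Spry1, against 100% for the other 7 members, so reads of these 3 are less certain where the counting could split them.

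**Figure D2:**
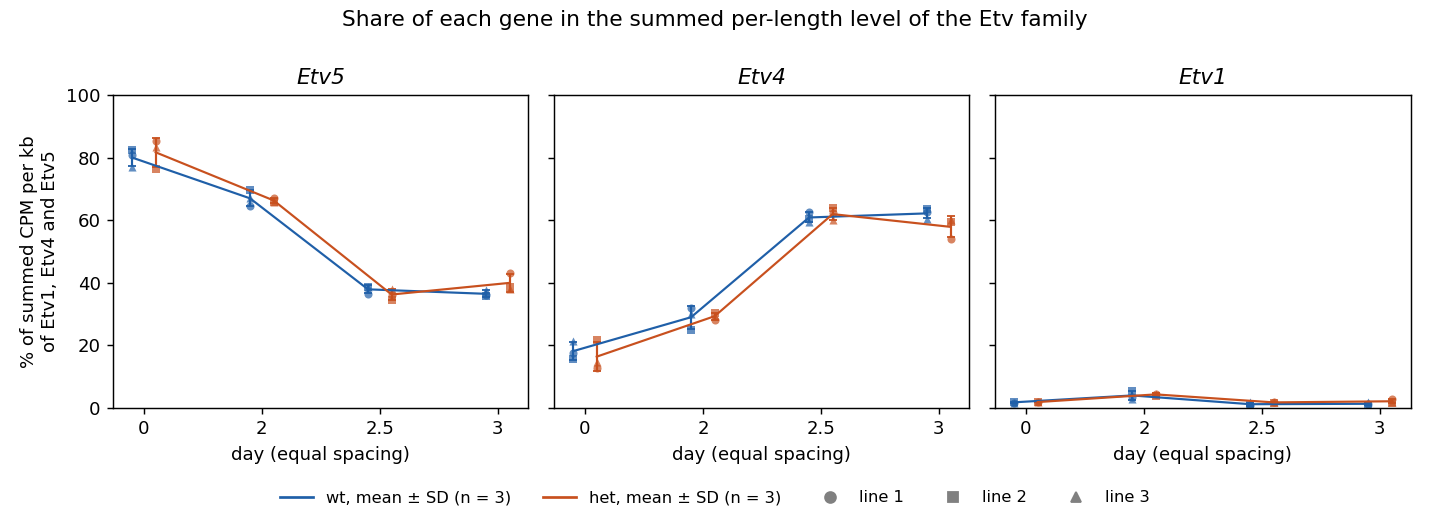
Share of Etv5, Etv4 and Etv1 in the summed CPM per kb of the 3 genes, in percent, by day (days equally spaced), with wt in blue and het in orange. Points are lines, and lines with bars give the mean ± SD (n = 3). The wt share of Etv5 goes from 80.1% to 36.5% and that of Etv4 from 18.1% to 62.2%, with the crossing between day 2 and day 2.5 in both genotypes.

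**Figure D3:**
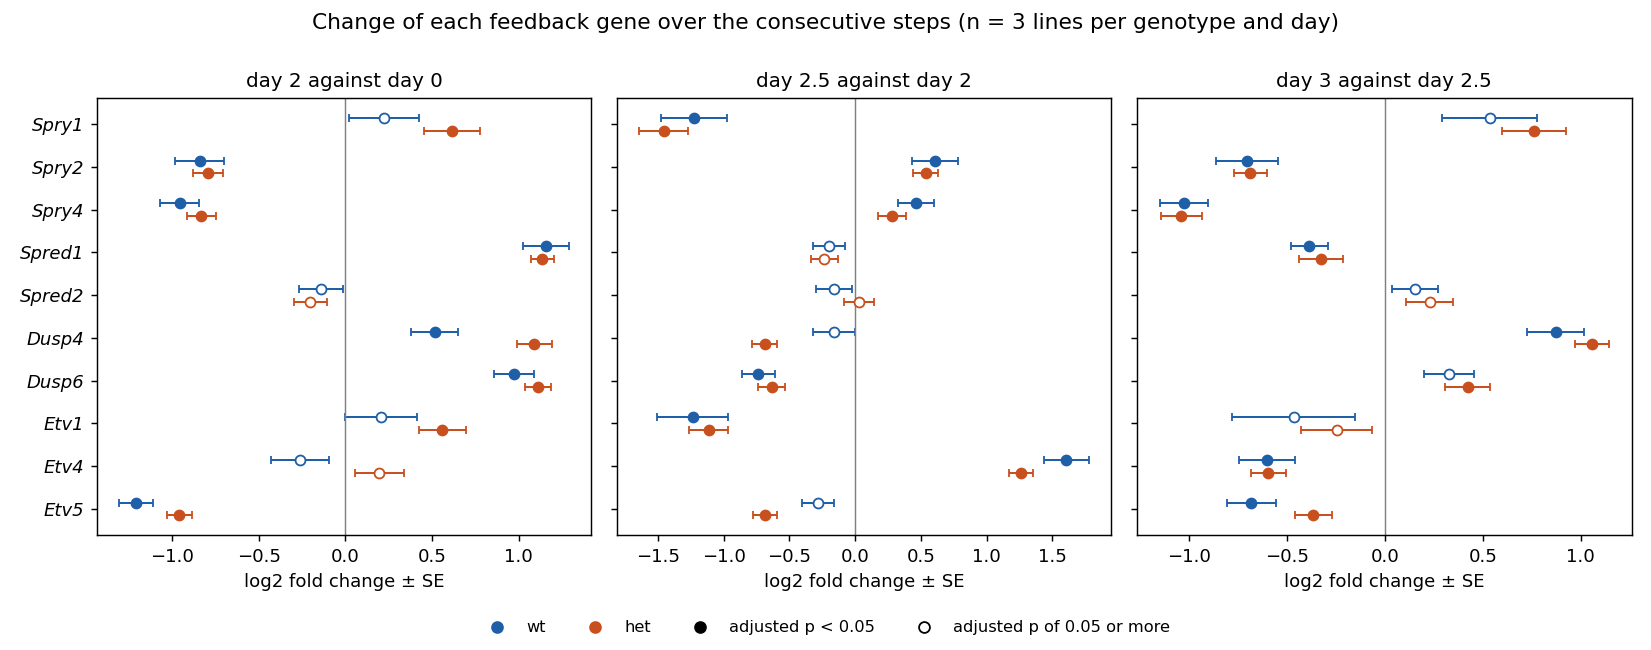
Log2 fold change of each gene with its standard error in the consecutive steps, for wt (blue) and het (orange), n = 3 lines per genotype and day. Filled points have an adjusted p under 0.05 and open points do not. Members lie on both sides of 0 in each step, and Spred2 is open in all 6 comparisons drawn.

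Ranked by CPM per kb, the leading member changed with the day. At day 0 Etv5 led in wt at 71.7 ± 2.45 CPM per kb, ahead of Spry2 at 42.5 ± 1.96, Dusp6 at 33.4 ± 4.09 and Spry4 at 22.6 ± 0.799 (SD, n = 3), and none of these 4 overlapped its neighbour. Dusp4, Etv4 and Spred2 followed with overlapping neighbours at 16.9, 16.2 and 15.1, and Spred1 at 13.0 did not overlap with Spred2. At day 2 Dusp6 led at 65.3 ± 4.74 CPM per kb, apart from Etv5, Spred1, Dusp4 and Spry2, which overlapped their neighbours between 30.9 and 23.6. At day 2.5 Etv4, Dusp6 and Spry2 overlapped their neighbours at 41.2, 39.3 and 36.1 CPM per kb and stood apart from Etv5 at 25.5. At day 3 Dusp6 at 49.0 and Dusp4 at 39.2 CPM per kb overlapped and stood above Etv4 at 27.0. Spry1 and Etv1 were the lowest on every day and in both genotypes, and the highest member exceeded the lowest by 35.9 times (wt day 2) to 88.3 times (wt day 3) in wt. The lowest was Etv1, divided by an exon union of 13296 bases, while its longest transcript has 6576 bases. With the shorter length these spans would be smaller. In het the order of the means differed from that of wt in places. At day 2.5 Dusp6 at 49.5 CPM per kb came before Etv4 at 39.9, but their libraries overlapped in both genotypes. At day 0 Spred1 came before Spred2, Etv4 and Dusp4 in het, where it overlapped with Spred2 and Etv4.

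The other genes of the pathway were taken from lists fixed by role. From day 0 to day 2, 44.3% of all genes tested were called in wt and 56.1% in het. The shares were 29.1% and 44.7% to day 2.5, and 19.1% and 29.8% to day 3. The counts per list were not tested against these shares. Of 11 FGF ligands, 8 were tested from day 0 to day 2, of which 5 fell in wt and 6 in het and 0 rose. Among them Fgf4, the main FGF of pluripotent cells, fell, at -0.65 (SE 0.11) in wt and -0.53 (SE 0.07) in het on the log2 scale. From day 2 to day 2.5, 2 of 8 ligands rose and 3 fell in wt, and 3 rose and 3 fell in het. Fgf4 fell further, at -4.59 (SE 0.16, adjusted p = 9.07e-10) in wt and -5.27 (SE 0.18, adjusted p = 1.15e-10) in het, while Fgf8, the FGF of the caudal embryo, had a log2 rise of 4.03 (SE 0.82) in wt and 4.42 (SE 0.61) in het. From day 2.5 to day 3, 3 of 8 ligands rose and 1 fell in wt, and 4 rose and 1 fell in het. Fgf4 rose in that step, by 2.18 (SE 0.23, adjusted p = 0.000610) in wt and by 2.41 (SE 0.29, adjusted p = 0.000229) in het, and at day 3 it was still below day 0, at -3.05 (SE 0.18) and -3.35 (SE 0.19). Of the 5 receptor genes, 1 rose and 1 fell in wt from day 0 to day 2, and 3 rose and 1 fell in het. The largest rise was that of Fgfr4 in wt, at 0.81 (SE 0.29, adjusted p = 0.0322), and of Fgfrl1 in het, at 0.95 (SE 0.21, adjusted p = 0.00125), while Fgfr2 fell, at -1.42 (SE 0.13) in wt and -1.60 (SE 0.11) in het. Between days 2 and 2.5, 0 receptors rose and 1 (wt) or 2 (het) fell, with Fgfr3 at -2.96 (SE 0.30) in wt. From day 2.5 to day 3, 0 receptors were called in wt and 1 rose in het, Fgfrl1 at 0.66 (SE 0.18, adjusted p = 0.0172). Of 20 adaptor and kinase genes, 6 rose and 6 fell in each genotype from day 0 to day 2, 2 rose and 8 (wt) or 10 (het) fell to day 2.5, and 5 (wt) or 6 (het) rose and 2 fell to day 3.

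Of 13 other inhibitors, 12 were tested, and from day 0 to day 2, 5 rose and 1 fell in wt and 6 rose and 2 fell in het. The shares of all genes called in each step, given above, are the background of these counts too. From day 2 to day 2.5, 2 inhibitors rose and 5 fell in wt, and 3 rose and 4 fell in het. Dusp1, a nuclear phosphatase of MAP kinases, fell, at -2.81 (SE 0.18) in wt and -2.91 (SE 0.11) in het, and Il17rd, also known as Sef, rose by 1.05 (SE 0.15) in wt. From day 2.5 to day 3, 2 of 12 rose in wt and 3 in het and 0 fell. Of 13 other ERK response genes, 4 rose and 3 fell in wt and 4 rose and 5 fell in het from day 0 to day 2, led by Ier3 upwards (log2 2.33, SE 0.19, in wt) and by Myc downwards (log2 -2.19, SE 0.16, in wt). Egr1, an immediate early gene of ERK signalling, rose from day 2 to day 2.5 by 1.87 (SE 0.30) in wt and by 2.10 (SE 0.18) in het, and fell to day 3, at -1.79 (SE 0.30) and -1.55 (SE 0.13). The list as a whole was mixed in these steps, with 4 of 13 higher and 2 lower in wt and 5 and 4 in het to day 2.5, and 1 higher and 3 lower in wt and 3 and 3 in het to day 3. Ier3 fell to day 2.5, at -2.35 (SE 0.19) in wt and -1.89 (SE 0.16) in het, and the largest rise to day 3 was that of Ets2 in wt, at 0.90 (SE 0.15), and of Ets1 in het, at 1.34 (SE 0.15).

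Endoderm markers moved with the days as well. Their sum was 2380 to 3987 CPM in wt at day 0 and 7655 to 15624 CPM at day 2, and wt line 3 had the highest sum on each day. Their part in the changes of the members from day 0 to day 2 was not tested, and in bulk samples fewer cells of a type and less RNA per cell cannot be told apart.

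The comparison of het with wt asked whether a deleted paternal Smchd1 allele alters expression in the embryo's own cells. None of the 10 members passed the threshold in edgeR on days 0, 2, 2.5 or 3, where 0%, 0.551%, 0% and 0.00638% of all genes were called. At an unadjusted p under 0.05 there were 2, 4, 3 and 4 members, against 10.9%, 10.2%, 5.27% and 9.13% of all genes tested. The log2 fold changes of the members ran from -0.30 to 0.78 over the 4 days, and their median was 0.02, 0.27, 0.13 and 0.22, beside a median near 0 for all genes tested. At day 3, the count of members called was 2 with no filter beyond 1 count (Dusp6 and Spred1) and 1 by the DESeq2 Wald test (Dusp6). Of all genes, 274 and 116 were called under these settings, against 1 in the reported edgeR fit.

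**Figure D4:**
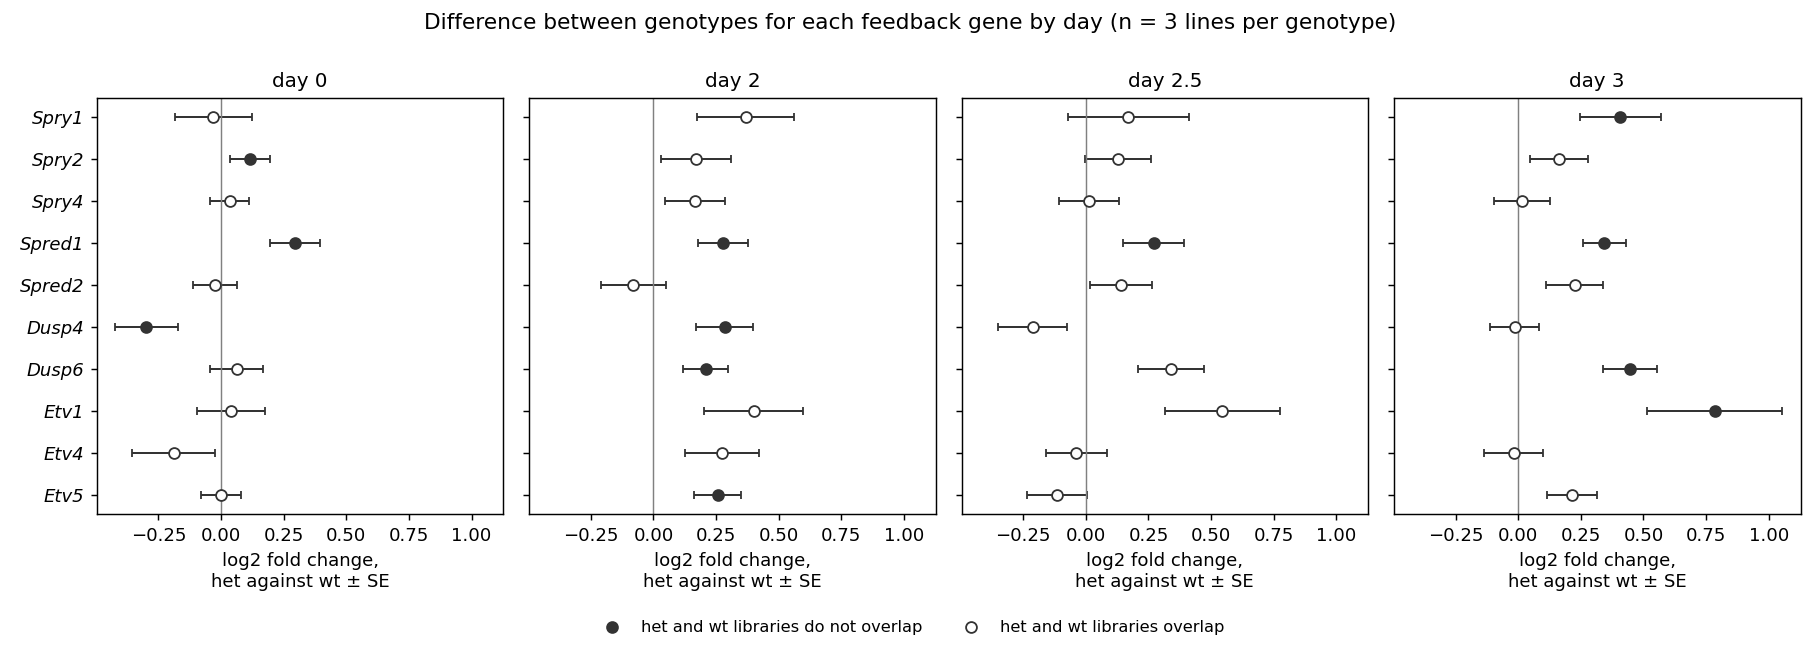
Log2 fold change of each gene in het against wt with its standard error, by day, n = 3 lines per genotype. Filled points mark genes whose het and wt libraries do not overlap in CPM. Spred1 is filled and above 0 on all 4 days, Dusp4 is below 0 at day 0 and above it at day 2, and no point has an adjusted p under 0.05.

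Spred1 stood out by its constancy. At day 0 it was at 103, 115 and 110 CPM in the het lines, above the wt lines at 74.2 to 96.8 CPM. At day 2 the het lines were at 244, 232 and 240 CPM against 166 to 216 CPM in wt, at day 2.5 at 177, 191 and 249 CPM against 169 to 172 CPM, and at day 3 at 175, 152 and 173 CPM against 126 to 138 CPM. The libraries did not overlap on any of the 4 days, which held for 4 of 14049 genes (0.0285%) in this direction and for 6 (0.0427%) in the other. The other 3 were Slc4a7, Sp1 and Map3k15, named after their values were seen. The 4 days come from the same 6 lines and are not independent. The log2 fold changes were 0.29 (SE 0.10, adjusted p = 0.369), 0.28 (SE 0.10, adjusted p = 0.313), 0.27 (SE 0.12, adjusted p = 0.907) and 0.34 (SE 0.09, adjusted p = 0.297) by the edgeR quasi-likelihood test. Single lines moved these values, to 0.19 without wt day 0 line 1, 0.17 without wt day 2 line 3 and 0.11 without het day 2.5 line 3.

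Dusp6 was higher by 0.45 on the log2 scale in het at day 3 (SE 0.11, adjusted p = 0.288), with het lines at 224, 183 and 225 CPM, all above the wt lines at 157, 167 and 136 CPM. At day 2 it was 0.21 (SE 0.09, adjusted p = 0.441), also without overlap, and at day 2.5 it was 0.34 (SE 0.13, adjusted p = 0.907) with overlapping lines, and 0.21 without het day 2.5 line 3. Etv1 was at 15.9, 10.3 and 12.3 CPM in het and at 8.27, 4.39 and 9.51 CPM in wt at day 3, a difference of 0.78 on the log2 scale (SE 0.27, adjusted p = 0.436) that was 0.52 without wt day 3 line 2, and Spry1 at day 3 was at 14.1 to 17.5 CPM in het and at 10.3 to 12.9 CPM in wt (log2 0.41, SE 0.16, adjusted p = 0.507). Etv5 was at 147 to 158 CPM in het and at 122 to 135 CPM in wt at day 2 (log2 0.26, SE 0.09, adjusted p = 0.309). Apart from Dusp4, described below, Spry2 at day 0 was the remaining case without overlap, at 93.4 to 99.3 CPM in het and 84.6 to 92.7 CPM in wt. Of all genes tested, 9.38%, 8.08%, 6.15% and 8.29% had every het library above every wt library on days 0, 2, 2.5 and 3, where 2, 4, 1 and 4 of the 10 members did, and 7.28%, 7.91%, 5.2% and 5.6% had every het library below, where 1, 0, 0 and 0 members did.

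Dusp4 was lower in het at day 0 and higher at day 2. Its het lines lay at 33.3 to 41.3 CPM at day 0, under the wt lines at 43.5 to 51.6 CPM, and at 76.8 to 82.7 CPM at day 2, above the wt lines at 57.1 to 72.5 CPM. Groups apart one way on one day and the other way on another were found for 2.41% of the genes tested on all 4 days. The log2 fold changes were -0.30 (SE 0.12, adjusted p = 0.420) and 0.28 (SE 0.12, adjusted p = 0.394), and without wt line 1, the line with high chromosome 8 genes, they were -0.20 and 0.35. In the interaction of genotype with step the change to day 2 was 0.59 (SE 0.17) larger in het on the log2 scale, with an adjusted p of 0.754 by the edgeR test. For the step to day 2.5 the interaction was -0.52 (SE 0.18, adjusted p = 0.952). Etv5 had interactions of 0.26 (SE 0.12, adjusted p = 0.787) and -0.39 (SE 0.15, adjusted p = 0.952) for the same steps. No member was called in the interaction for any of the 3 steps, and neither was any of all genes tested (0%). At an unadjusted p under 0.05 there were 2, 2 and 0 members, against 6.31%, 5.13% and 3.85% of all genes. A step called in het and not in wt, as for Spry1 and Etv1 to day 2 or Etv5 to day 2.5, was therefore not shown to differ between genotypes.

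At day 2 the het and wt lines also differed in endoderm markers. The sum of the 20 markers was 4639 to 6439 CPM in het and 7655 to 15624 CPM in wt, 13 of the 17 tested were lower in het and 0 higher, and Afp was at 0 in every het library. At day 0 the sums were 1375 to 1996 CPM and 2380 to 3987 CPM, with 0 of 17 called, Ttr at 0 in every library, and Afp at 0 in every wt library. Of these 17, 16 had a negative log2 value at day 0, with a median of -0.83, against -1.05 at day 2. At days 2.5 and 3 the sums overlapped and 0 of 17 were called, but all 17 had negative values on both days, with medians of -0.47 and -0.72. At day 3 the epiblast-like markers moved the other way: all 4 had positive values in het, with a median of 0.98, and 0 were called. Pou3f1 was at a mean of 11.7 CPM in het and 5.56 CPM in wt, Otx2 at 5.78 and 3.09 CPM, Fgf5 at 1.54 and 0.570 CPM, and Dnmt3b at 205 and 162 CPM. Of the naive markers 4 of 6 and of the caudal markers 3 of 8 had positive values at day 3, with 0 called. The part of these marker differences in those of Spred1 and the other members between genotypes was not tested. In the 5 other pathway lists 0 genes were called between genotypes on any day.

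Over the 24 libraries, the members were compared with 12447 genes of at least 50 counts on average by Pearson's r of log2 CPM, as a description across days in which all points share the same 6 lines. Etv5 was closest to Grhl2 (r = 0.99), Tle4 and Atg13, and Spred1 to Pmaip1 (0.98), Slc39a10 and Eif1ax. Spry4 was closest to Gpn1 (0.97), Hirip3 and Zscan10, and Spry2 to Ddx39b (0.96), Ddx18 and Ddx11. Etv4 was closest to Cdkn1a (0.95), Axin2 and Dkk4, the last of which, like Axin2, is a feedback inhibitor gene of Wnt signalling. Dusp4 was closest to Laptm4b (0.94), Peli2 and Anp32a, Dusp6 to Sox4 (0.93), Castor2 and Marcks, Spry1 to Tacc1 (0.94), Unc5b and Stk17b, and Etv1 to Ubqln1 (0.91), Tspan17 and Nap1l2. Spred2 had no close match, with 0.75 for Msn, then Dpysl3 and Card10. Among the 45 pairs of members, 7 had r above 0.5 and 8 had r under -0.5. The extremes were Spry2 with Spry4 at 0.88 and Spry4 with Dusp4 at -0.91. Etv4 with Etv5 was at -0.63 and Spred1 with Dusp6 at 0.77.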

How the data were processed

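Poly(A) RNA was measured in 24 libraries. Per the labels and the study's methods, single-end reads of 75 bases from stranded or non-stranded TruSeq kits were trimmed with Trim Galore 0.4.4, mapped to GRCm38.p6 with HISAT2 2.0.5 and quantified in SeqMonk, and the authors deposited raw counts per gene, which were used here. Neither the kit of each library nor the treatment of reads shared by overlapping genes is given in the sources used here. The log2 RPKM tables, which hold other genes, and the group mean columns were not used.

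Counts were compared in R 4.3.3 with edgeR 4.0.16: TMM factors, filterByExpr by group, a quasi-likelihood fit of the groups compared (12 libraries for the interaction), and Benjamini-Hochberg adjustment over all genes tested, called at 0.05. The standard error is the log2 fold change over the root of F. The same numbered line on 2 days is the same line, so day steps are paired by design. Deviations of the same line on 2 days correlated at -0.10 to 0.48 (median 0.08, 24 pairs, 12457 genes, 10 over 0.1). A wt and a het line of the same number are different lines. The replicates are lines, of which 0 of 24 pairs of libraries in a group were identical. The alternatives tried were library totals alone or DESeq2 size factors in place of TMM, every gene with at least 1 count kept, DESeq2 1.42.0 with its Wald test, a single fit over the 24 libraries, a block for the line number, each library left out in turn, and, added after the data were seen, wt line 1 left out on every day. The procedure was tested on simulated data.

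CPM used TMM factors over 24 libraries, and per-length levels the exon union in GENCODE vM21, whose coordinates match those of the table for all 10 members. Promoter windows are from RefSeq. Intervals of counting were not needed, since values are compared over lines. The members and all lists were chosen with earlier results of these data known. Named were the members, the called gene with the largest rise or fall of a pathway list (Fgf4 and Fgf8 in further steps, chosen after their values were seen), and the 3 genes most correlated with each member. Python 3.11.15 with matplotlib 3.10.9 drew the figures.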

Additional observations from a re-analysis of the deposited data

Results flagged for a closer look

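Dusp4 was set apart for moving in opposite directions in the genotype comparison of 2 days: every het library lay under every wt library at day 0 (log2 fold change -0.30, SE 0.12) and above it at day 2 (0.28, SE 0.12). Neither value was called in edgeR (adjusted p = 0.420 and 0.394). The difference between these days, the interaction, was 0.59 (SE 0.17), with an unadjusted p of 0.0027 and an adjusted p of 0.754. Of 14049 genes, 338 (2.41%) had het above wt without overlap on one day and below on another.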

How the results depend on the processing

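Across the alternatives, 97 member values (58 of them called) were refitted 1245 times, and the direction held in 1238. No called value turned. The values that turned were near 0 and not called: Etv1 in wt day 2 against day 0 (-0.0406 without wt day 2 line 2, the range with a library left out being -0.0406 to 0.410), Spred2 in het day 2.5 against day 2 (-0.0123, -0.0221 and -0.0771 without het day 2 line 1 or 3 or het day 2.5 line 3, range -0.0771 to 0.125), Spred2 in het day 3 against day 0 (-0.00789 without het day 3 line 1, range -0.00789 to 0.178) and Spry1 in the same comparison (0.0364 without het day 3 line 1, range -0.133 to 0.0364, and 0.0758 with library totals alone). With library totals alone the median of all genes moved by 0.12 in that comparison, the single shift over 0.1.

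The count of members called in het against wt at day 3 went from 0 to 2 with no filter beyond 1 count, where 274 genes were called in all, and to 1 by the DESeq2 Wald test, where 116 were. With a library left out, the count of 6 in wt day 3 against day 2.5 ranged from 3 to 7, with 3 without wt day 3 line 3 (all genes called went from 2923 to 1281), and the count of 8 in het day 3 against day 2.5 ranged from 5 to 7, with 5 without het day 3 line 3 (from 4710 to 3014). The ranges were 5 to 6 and 4 to 6 for the first and second steps in wt, 8 to 9 and 7 to 8 in het, 8 for day 3 against day 0 in both, and 0 for every comparison of genotypes and interaction. The cause of these changes was not tested.

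With the line as a replicate block the counts were 6, 6, 7 and 8 in wt for the 3 steps and day 3 against day 0, 8 for each in het, and 0 in every comparison of genotypes and interaction. The share of all genes called in the block fits, and in the fits behind the ranges above, is not given here. These counts of members are therefore not set against a background. The block added Dusp6 in wt day 3 against day 2.5 (adjusted p = 0.0161) and Spred1 in het day 2.5 against day 2 (adjusted p = 0.0489), removed Spry4 there (adjusted p = 0.0579), and changed no other call. Same-numbered wt and het lines share a number only, and their deviations correlated at -0.16 to 0.20 (median -0.00, 12 pairs, 1 over 0.1). Beside single libraries and the block, the settings that changed a call were DESeq2 size factors, library totals alone and the fit of all libraries (Spred1 lost in het day 3 against day 2.5), that same fit (Etv1 lost in het to day 2; Etv5 gained in wt to day 2.5 and Spry1 in wt to day 3 from day 0), no filter beyond 1 count (Spred1 gained in het to day 2.5, and Dusp6 and Spred1 in het against wt at day 3, adjusted p = 0.00494 and 0.0475), the DESeq2 Wald test (Dusp6 gained in the latter, adjusted p = 0.0346), and wt line 1 left out (Spry2 lost in wt to day 2.5, adjusted p = 0.0835; Dusp6 gained in wt to day 3). Depth limits Spry1 and Etv1 most, with counts down to 70 and 54 in a library.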
